A study of Mus musculus with 6 samples.

Results

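The genes described here encode 10 enzymes that remove acyl groups from lysines or add them. They are 6 sirtuins (Sirt1, Sirt2, Sirt3, Sirt5, Sirt6 and Sirt7) and 4 acyltransferases (Kat2a, Kat2b, Hat1 and Kat5), taken by symbol from the 21899 genes listed in each sample. Each symbol had a single identifier, and all 10 were among the 12768 genes with enough reads to be tested. Bulk mRNA sequencing was done on induced regulatory T cells (iTregs), which are CD4+ T cells turned into Treg cells in culture. The 6 samples fall into 3 KO samples from Dlst-Treg iKO mice, named for an inducible loss of Dlst in Treg cells, and 3 WT samples from iWT control mice. Both groups came from spleen, spent 2 days under Treg polarisation with 4-hydroxytamoxifen, a drug that switches on tamoxifen-dependent recombinases, and were sorted as positive for CD4, FoxP3-GFP and tdTomato. The labels give neither the driver of the recombinase nor the strain, age or sex of the mice, and they do not say whether samples of a group came from separate animals. The p-values thus take in only the variation among these libraries, some of which may be technical.

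Lysine side chains carry acetyl, succinyl and other acyl groups that come from acyl-CoA molecules made in metabolism. Acyltransferases add them, on histones and on many other proteins, and sirtuins remove them in a reaction that consumes NAD+. DLST is the succinyltransferase core of mitochondrial 2-oxoglutarate dehydrogenase, which makes succinyl-CoA. In human cells that enzyme complex has been found bound to KAT2A at chromatin, where KAT2A can succinylate histone H3. In Treg cells the FOXP3 protein is itself acetylated, with KAT5 known to acetylate it and SIRT1 to deacetylate it. The comparison of KO with WT here asks whether mRNA of these enzymes differed when Dlst was targeted.

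Library totals were 33590510 to 49772670 estimated counts in KO and 35647816 to 47526481 in WT, and the 10 genes had 138 to 4049 counts per sample. Dlst stood at 125, 129 and 129 CPM (counts relative to the library size, scaled by TMM) in KO and 161, 149 and 149 CPM in WT. Its log2 fold change was -0.26 (SE 0.05, edgeR adjusted p = 0.0894). The value covers the whole gene, and the labels do not say which exons are targeted. The labelled cell type fitted its markers: 8 T cell and Treg markers, Cd3e, Cd4 and Foxp3 among them, summed to 3736 to 4045 CPM in KO and 3666 to 4107 CPM in WT. Il2ra was the largest part, at 1838 to 2233 CPM in KO and 1944 to 2332 CPM in WT. The overlap of the sums hides differences between markers. Foxp3, Trac and Ikzf4 lay higher in every KO sample than in every WT sample, and Cd4 and Cd3d lay lower. KO replicate 1 stood apart from the other 5 samples in Y-linked RNA and in myeloid markers. It had 81.3 CPM of the Y-linked gene Ddx3y and 82.9 CPM of Eif2s3y, against at most 0.0256 CPM of either in the others. It thus held RNA of a male, which the other libraries did not detectably hold, and sex differs within KO and between that sample and WT. It also had 296 CPM summed over 8 neutrophil markers (other KO samples 70.7 to 72.3 CPM, WT 4.62 to 31.1 CPM) and 351 CPM over 8 macrophage and monocyte markers (other KO samples 90.4 to 101 CPM, WT 20.2 to 29.2 CPM). The B cell list summed to 155 to 190 CPM in KO and 117 to 282 CPM in WT, the CD8 list to 86.0 to 102 CPM in KO and 42.9 to 76.2 CPM in WT. The natural killer list summed to 5.84 to 7.46 CPM in KO and 4.13 to 6.54 CPM in WT, the dendritic list to 8.34 to 11.7 CPM in KO and 4.49 to 6.07 CPM in WT, and the erythroid list to 0.0768 to 0.322 CPM in KO and 0.364 to 1.05 CPM in WT. The neutrophil, macrophage and monocyte, dendritic and CD8 sums lay higher in every KO sample than in every WT sample, and the erythroid sum lower. These separations thus remain without KO replicate 1. At an edgeR adjusted p under 0.05, 1 macrophage and monocyte marker and 1 dendritic marker passed, and 0 of the other lists. No list had a marker at 0 in all 6 samples. WT replicate 1 stood apart in its group too. It held the highest B cell sum (282 CPM, against 160 and 117 CPM in the other WT samples). Beyond sampling noise its counts varied by 14.4 and 14.7% (coefficient of variation) from WT replicates 2 and 3. That pair varied by 7.12%. KO replicate 1 varied by 14.3 and 12.5% from KO replicates 2 and 3, a pair that varied by 2.97%. The part of other cell types in the values below was not tested, and some results are also given without KO replicate 1 or WT replicate 1.

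All 10 genes had a promoter window in the RefSeq table (GRCm38.p6), from 250 bases before to 50 bases after an annotated start, in 14 windows of 300 bases. Of these, 5 are shown for 3 genes: Sirt1, whose KO and WT samples did not overlap in CPM or in TPM, and Kat2b and Sirt3, which have 2 annotated starts each and whose ratio of counts to TPM is compared below. Capitals mark matches on either strand to any of 4 short motifs. The GC box, which SP-family factors bind, was searched as GGGCGG. The CCAAT box was searched by its own letters. For the E-box, which MYC and USF factors bind, the letters were CACGTG. The motif of the ETS family of factors was searched as CCGGAAGT. The windows are written 5′ to 3′ on the gene's strand. They are at chr10:63338986-63339285 (minus strand) for Sirt1, chr17:53566721-53567020 and chr17:53583876-53584175 (plus strand) for the upstream and downstream starts of Kat2b, and chr7:140882260-140882559 and chr7:140881820-140882119 (minus strand) for the upstream and downstream starts of Sirt3.
Sirt1: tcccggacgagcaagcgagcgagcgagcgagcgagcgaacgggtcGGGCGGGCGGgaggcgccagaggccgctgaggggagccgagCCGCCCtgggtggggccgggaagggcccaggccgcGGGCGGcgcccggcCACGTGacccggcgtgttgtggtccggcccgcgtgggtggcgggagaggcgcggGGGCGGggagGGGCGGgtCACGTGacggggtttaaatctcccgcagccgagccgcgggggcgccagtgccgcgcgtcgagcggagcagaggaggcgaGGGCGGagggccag
Kat2b upstream: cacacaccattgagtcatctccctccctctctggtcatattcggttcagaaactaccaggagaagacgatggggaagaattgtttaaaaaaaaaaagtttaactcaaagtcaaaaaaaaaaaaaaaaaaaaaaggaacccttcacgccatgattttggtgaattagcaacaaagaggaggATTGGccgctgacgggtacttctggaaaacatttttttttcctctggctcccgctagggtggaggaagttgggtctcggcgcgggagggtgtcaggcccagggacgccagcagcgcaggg
Kat2b downstream: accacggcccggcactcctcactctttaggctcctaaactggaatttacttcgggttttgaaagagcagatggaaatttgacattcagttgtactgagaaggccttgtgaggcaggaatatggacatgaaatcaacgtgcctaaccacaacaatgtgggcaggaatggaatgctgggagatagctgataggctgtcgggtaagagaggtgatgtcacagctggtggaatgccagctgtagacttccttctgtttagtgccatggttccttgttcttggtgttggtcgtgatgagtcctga
Sirt3 upstream: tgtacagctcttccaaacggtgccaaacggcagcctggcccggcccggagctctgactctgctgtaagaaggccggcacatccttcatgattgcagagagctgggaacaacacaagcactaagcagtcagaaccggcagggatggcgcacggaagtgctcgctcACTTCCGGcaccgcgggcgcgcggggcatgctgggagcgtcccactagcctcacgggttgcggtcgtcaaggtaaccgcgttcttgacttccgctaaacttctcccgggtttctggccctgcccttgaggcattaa
Sirt3 downstream: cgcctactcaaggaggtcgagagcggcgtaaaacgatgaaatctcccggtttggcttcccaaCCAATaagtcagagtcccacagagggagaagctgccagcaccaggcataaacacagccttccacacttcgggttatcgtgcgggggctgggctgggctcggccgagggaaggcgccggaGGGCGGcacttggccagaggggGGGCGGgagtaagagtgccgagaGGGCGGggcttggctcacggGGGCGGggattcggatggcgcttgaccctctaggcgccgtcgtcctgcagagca
The Sirt1 window held 7 GC boxes and 2 E-boxes and was 79.0% G and C, the highest of the 14 windows. The downstream Kat2b window held none of the motifs and was 48.3% G and C, and the upstream one held 1 CCAAT box. The Sirt3 starts differed in content too, with 4 GC boxes and 1 CCAAT box at the downstream start and 1 ETS motif at the upstream start. GC boxes stood in 8 of the 14 windows, against 35.7% of all 32851 windows in the table, CCAAT boxes in 6 against 37.4%, E-boxes in 3 against 7.15%, and ETS motifs in 4 against 3.89%. The motif of E2F factors was searched too and stood in 1 of the 14 windows, against 2.26%. The cAMP response element stood in 0, against 1.79%. Neither occurs in the windows shown. These matches describe letters in a window and not sites of binding.

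None of the 10 mRNAs changed between KO and WT by the test across all genes. By edgeR's quasi-likelihood test, adjusted by Benjamini and Hochberg's method, 0 of 10 passed an adjusted p of 0.05. Of all tested genes 0.674% passed, 0.454% as higher and 0.219% as lower in KO. DESeq2 also called 0 of 10, against 3.84% of the genes for which it gave an adjusted p. At an unadjusted p under 0.05 there was 1 of 10, Sirt1, with either tool, against 15.1% of tested genes by edgeR and 10.8% by DESeq2. The 95% interval of each gene's fold change lay within 1.5-fold in either direction. The median log2 fold change of the 10 was 0.03, against -0.00 over all tested genes, and 7 were above 0, against 49.1% of all genes. The median size of the log2 fold change, sign ignored, was 0.04 for the 10 and 0.10 for all tested genes, which include many genes of lower counts. In bulk samples fewer cells of a type and less RNA per cell cannot be told apart.

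**Figure D1:**
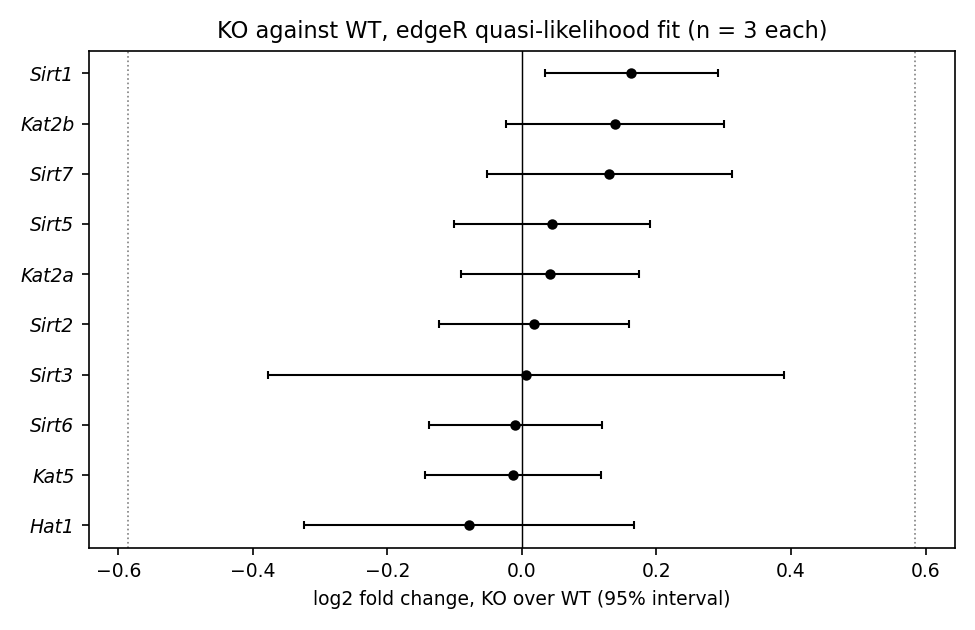
log2 fold change of KO over WT for each gene (points) with its 95% interval (bars) from the edgeR fit, 3 KO against 3 WT samples, with dotted lines at 1.5-fold in either direction. The Sirt1 interval, 0.03 to 0.29, is the 1 interval that leaves out 0, and all 10 lie inside the dotted lines.

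**Figure D2:**
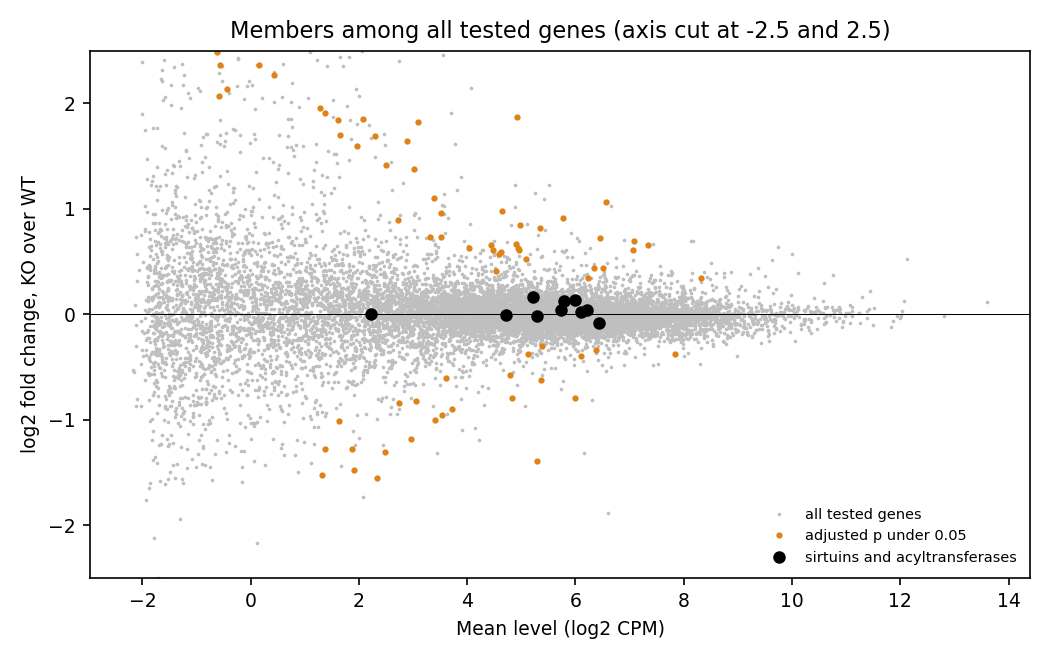
Mean level (log2 CPM) against log2 fold change of KO over WT for the tested genes (grey), those with an adjusted p under 0.05 (orange) and the 10 sirtuin and acyltransferase genes (black). The vertical axis is cut at -2.5 and 2.5, which leaves out 75 genes, and the black points lie close to 0.

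The enzymes were expressed at different levels, and the order was nearly the same in KO and WT. In TPM (reads divided by transcript length, then by library total), mean levels over the 6 samples differed 15.6-fold between the most and the least abundant. Hat1 came at the top, followed by Sirt2, Sirt7, Sirt5, Kat5, Kat2a, Kat2b, Sirt6, Sirt1 and Sirt3. Of the tested genes, 86.9% lay below Hat1, 47.9% below Sirt1 and 29.7% below Sirt3 in mean TPM. Hat1, Kat2a, Kat2b, Sirt6, Sirt1 and Sirt3 held the same place in each of the 6 samples. The ranges of neighbours overlapped in 5 of 9 pairs: Sirt2 and Sirt7, Sirt7 and Sirt5, Sirt5 and Kat5, Kat2a and Kat2b, and Kat2b and Sirt6. Hat1 lay above Sirt2, Kat5 above Kat2a, Sirt6 above Sirt1 and Sirt1 above Sirt3 with no overlap of samples. The 6 sirtuins together summed to 252, 230 and 230 TPM in KO and 226, 235 and 227 TPM in WT. The 4 acyltransferases summed to 216, 231 and 231 TPM in KO and 234, 206 and 226 TPM in WT, so both sums overlapped between groups.

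**Figure D3:**
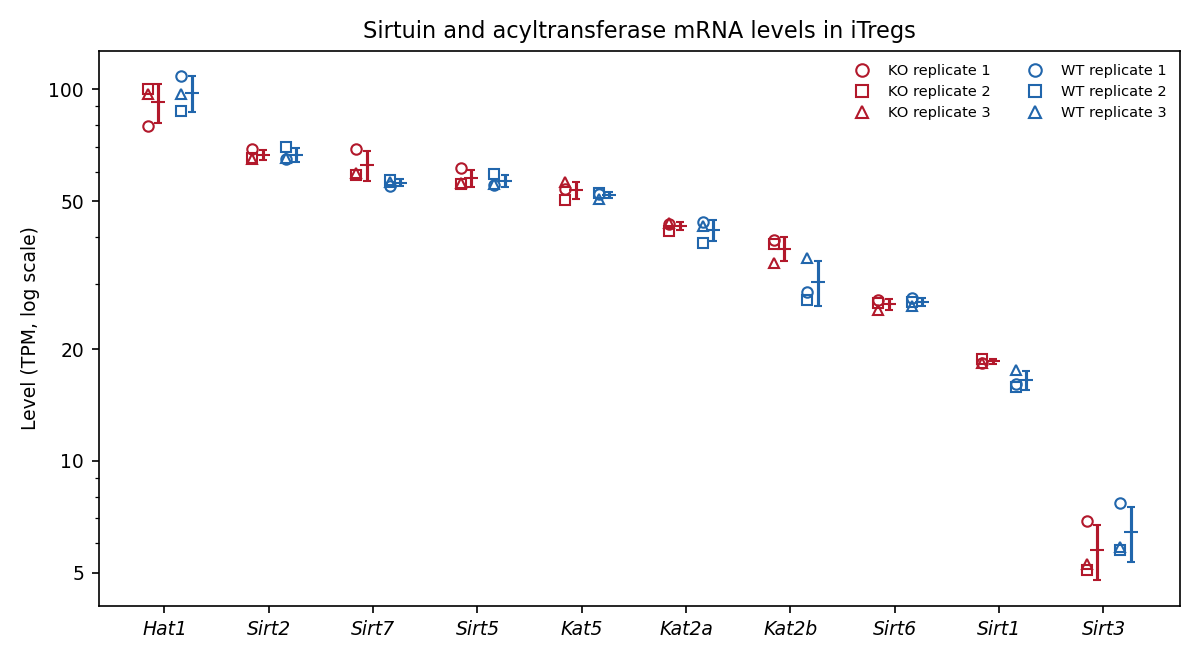
Level of each gene in TPM (log scale) in the 3 KO (red) and 3 WT (blue) samples, with the mean and SD beside the points and a marker shape for each replicate. Hat1 is highest, at 79.6 to 109 TPM, and Sirt3 lowest, at 5.10 to 7.68 TPM. Points of KO and WT overlap for 8 genes and are apart for Sirt1 and Sirt7.

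Among the nuclear sirtuins, Sirt1 alone had every KO sample above every WT sample in CPM. SIRT1 is a deacetylase of histones and of transcription factors. Sirt1 had 39.2, 39.6 and 39.5 CPM in KO and 34.4, 34.1 and 37.1 CPM in WT. The KO samples were nearly identical, with a coefficient of variation of 0.583% against 4.66% in WT. At 1326 to 1962 counts per KO sample, sampling of reads alone gives a wider spread than this. The small value thus says little about how alike the KO samples were. The KO and WT samples did not overlap, KO being higher. Such a separation upwards in CPM held for 1 of the 10 genes, against 11.9% of tested genes, and a separation either way for 1 of 10, against 22.8%. The means were 39.4 ± 0.230 CPM in KO and 35.2 ± 1.64 CPM in WT (SD, n = 3 each), a 1.12-fold ratio (95% interval 1.02 to 1.22). The Sirt1 log2 fold change was 0.16 (SE 0.06, edgeR unadjusted p = 0.0197, adjusted p = 0.238), and it ranked 1055 by p among the tested genes. Sirt1 (ENSMUSG00000020063) spans 63319005 to 63381704 on the minus strand of chromosome 10 in GENCODE M21 (GRCm38), and it overlaps the antisense gene Gm16145. The promoter window shown for Sirt1 lies inside this span, so the RefSeq start used there is not the outermost start in GENCODE.

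Sirt6 and Sirt7 act in the nucleus as well. SIRT6 deacetylates histone H3 at telomeres and at metabolic genes. Sirt6 had 26.8, 26.5 and 25.4 CPM in KO and 26.6, 26.8 and 25.9 CPM in WT, with the groups intermixed. Its log2 fold change was -0.01 (95% interval -0.14 to 0.12, edgeR adjusted p = 0.952), and its highest sample was 1.06-fold above its lowest, the narrowest range of the 10. SIRT7 sits largely in the nucleolus and removes acetyl and succinyl groups from histone H3. Sirt7 had 64.1, 52.9 and 55.2 CPM in KO and 51.2, 55.0 and 51.3 CPM in WT. KO replicate 1 was highest and the other KO samples lay within or close to the WT range. The Sirt7 log2 fold change was 0.13 (SE 0.08, edgeR adjusted p = 0.479), and it was 0.04 without KO replicate 1 (edgeR adjusted p = 0.818). In TPM the KO samples, 69.0, 58.7 and 59.7 TPM, lay above the WT samples, 54.8, 57.2 and 56.3 TPM. Separation in TPM held for 2 of the 10 genes, Sirt1 and Sirt7, both upwards, against 9.69% of tested genes upwards and 21.4% either way. The separation of Sirt7 thus depended on the unit.

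SIRT2 is mainly cytosolic and deacetylates tubulin among other proteins. Sirt2 had 70.7, 68.5 and 68.4 CPM in KO and 64.8, 73.7 and 66.6 CPM in WT, with both the lowest and the highest sample in WT. The Sirt2 log2 fold change was 0.02 (95% interval -0.12 to 0.16, edgeR adjusted p = 0.919). Its gene overlaps Nfkbib by 778 bases on the opposite strand in GENCODE M21, and no source used here says whether counting used strand.

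The mitochondrial sirtuins stood at unlike levels. SIRT5 removes succinyl, malonyl and glutaryl groups, and SIRT3 is the main mitochondrial deacetylase. Sirt5 had 57.4, 52.6 and 52.7 CPM in KO and 50.7, 56.0 and 50.9 CPM in WT. The groups overlapped, with KO replicate 1 and WT replicate 2 above the other 4 samples, and the Sirt5 log2 fold change was 0.04 (95% interval -0.10 to 0.19, edgeR adjusted p = 0.776), or 0.0022 without KO replicate 1. Sirt3 had 5.41, 4.12 and 4.30 CPM in KO and 5.30, 4.39 and 4.13 CPM in WT. Replicate 1 was the highest of its group in KO and in WT, and the means were equal, at 4.61 ± 0.698 CPM in KO and 4.61 ± 0.615 CPM in WT (SD, n = 3 each). The log2 fold change of Sirt3 was 0.01 with the widest interval of the 10, -0.38 to 0.39 (edgeR adjusted p = 0.990). Leaving out KO replicate 1 gave -0.13 for Sirt3, and leaving out WT replicate 1 gave 0.12 (edgeR adjusted p = 0.806 and 0.786). Per length, Sirt5 was 8.90, 10.95 and 10.7 times as abundant as Sirt3 in KO and 7.17, 10.3 and 9.51 times in WT. Sirt3 lies on the minus strand of chromosome 7 from 140863666 to 140882309 and overlaps Ric8a by 707 and Psmd13 by 342 bases, both on the opposite strand. Both neighbours had far more counts, at least 2720 per sample, and neither was called (edgeR adjusted p = 0.788 and 0.596).

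Of the acyltransferases, the paralogs Kat2a and Kat2b encode GCN5 and PCAF, the catalytic subunits of the SAGA and ATAC complexes. Kat2a had 76.1, 73.0 and 76.5 CPM in KO and 76.4, 68.6 and 74.2 CPM in WT. The groups overlapped, and the Kat2a log2 fold change was 0.04 (95% interval -0.09 to 0.17, edgeR adjusted p = 0.773). Kat2b had 66.0, 67.9 and 65.1 CPM in KO and 55.2, 59.6 and 65.9 CPM in WT. WT replicates 1 and 2 lay below all KO samples and WT replicate 3 lay among them. The means of Kat2b were 66.3 ± 1.40 CPM in KO and 60.2 ± 5.39 CPM in WT (SD, n = 3 each), with a log2 fold change of 0.14 (SE 0.07, edgeR adjusted p = 0.403), which was 0.08 without WT replicate 1 and 0.21 without WT replicate 3 (edgeR adjusted p = 0.572 and 0.275). On the TPM scale the difference was larger, with 39.2, 38.3 and 34.1 TPM in KO against 28.5, 27.2 and 35.1 TPM in WT, with a difference of 0.30 in log2(TPM + 1) (limma adjusted p = 0.285). Kat2b per length stood at 0.901, 0.922 and 0.783 of Kat2a in KO and at 0.649, 0.704 and 0.819 of it in WT, values that overlap between groups.

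KAT5, also called TIP60, is the catalytic subunit of the NuA4-type complex in mammals. Kat5 had 40.6, 37.5 and 38.5 CPM in KO and 40.7, 38.6 and 38.5 CPM in WT, and the groups were intermixed. The log2 fold change of Kat5 was -0.01 (95% interval -0.14 to 0.12, edgeR adjusted p = 0.934). Its gene overlaps Rnaseh2c by 4006 bases on the opposite strand of chromosome 19, and how the authors' counting split reads between them is not known. HAT1 acetylates newly made histone H4 before it is assembled into chromatin. Hat1 had 72.0, 91.1 and 88.2 CPM in KO and 97.8, 80.4 and 87.2 CPM in WT. Its lowest sample was KO replicate 1 and its highest WT replicate 1, and the other 4 samples, of both groups, lay between. The Hat1 log2 fold change was -0.08 (SE 0.11, edgeR adjusted p = 0.765), or 0.02 without KO replicate 1 (edgeR adjusted p = 0.944). The 12 S phase genes listed here, such as the Mcm helicase subunits, summed to 3052, 3357 and 3315 CPM in KO and 4135, 3220 and 3578 CPM in WT, with the lowest and highest values in the same libraries as Hat1. All 12 were lower in KO on the log2 scale, and none was called by edgeR. The part of the cell cycle in the level of Hat1 was not tested.

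The counts and TPM deposited for a gene also imply the length its reads were divided by, which can differ between samples where reads are shared out among transcripts of unlike length. The ratio of counts to TPM, relative to the median gene of each sample, was therefore compared between groups, a comparison chosen after the values were seen. It varied between samples for 6 of the 10 genes, and its log2 value had an SD of no more than 0.01 for Sirt5, Sirt6, Kat2a and Hat1. These 4 are left out of the counts below. Even so, Kat2a was at 1.22 in each KO sample and 1.23 to 1.24 in WT. Hat1 was at 0.633 to 0.634 in KO and 0.637 to 0.642 in WT, so both were slightly shorter in KO with no overlap. For Sirt3 the relative length was 0.551, 0.563 and 0.569 in KO and 0.492, 0.529 and 0.499 in WT, so every KO sample was above every WT sample. Its log2 difference was 0.15 (SE 0.04, limma unadjusted p = 0.0084, adjusted p = 0.518). For Kat2b it was 1.18, 1.23 and 1.33 in KO and 1.38, 1.52 and 1.34 in WT, so every KO sample was below every WT sample, by a small margin at KO replicate 3 and WT replicate 3. Its log2 difference was -0.18 (SE 0.06, limma unadjusted p = 0.0337, adjusted p = 0.600). These were 1 of 6 genes apart as longer in KO, against 6.9% of the 6635 genes whose ratio varied, and 1 of 6 apart as shorter, against 10.3%. An unadjusted p under 0.05 was reached by 2 of 6, against 7.93% of those genes, and an adjusted p under 0.05 by 0 genes, so neither difference passed. GENCODE M21 annotates 10 transcripts for Sirt3, with protein-coding ones of 456 to 1606 bases, and 7 for Kat2b, with protein-coding ones of 439 to 4653 bases. Levels of single transcripts were not analysed here.

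**Figure D4:**
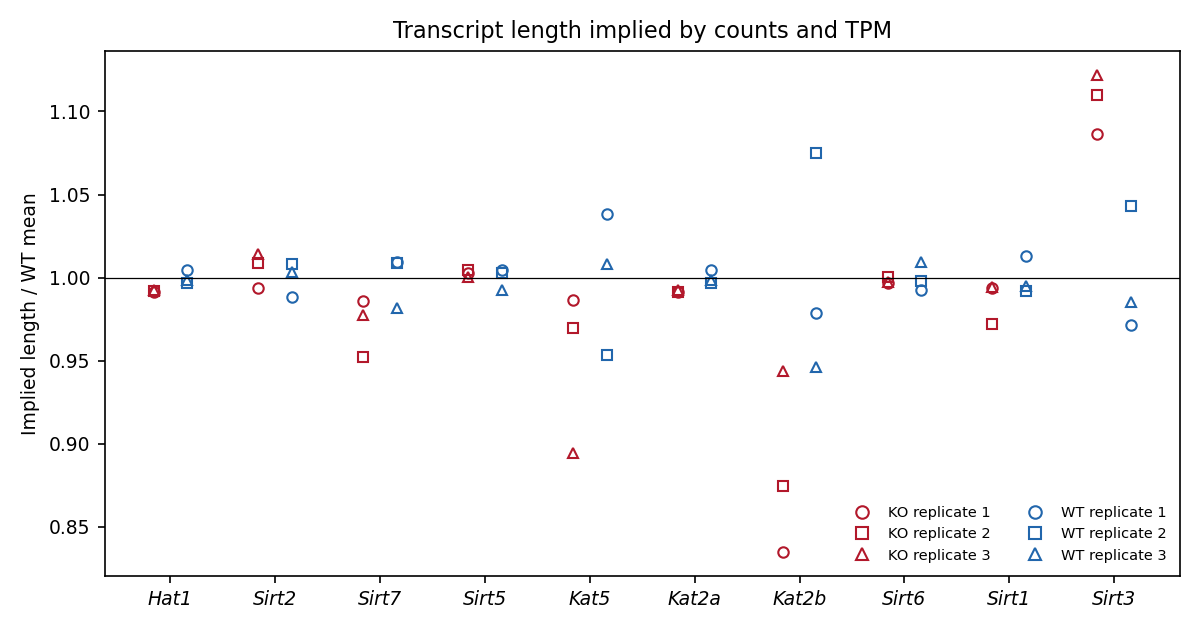
Transcript length implied by counts and TPM for each gene, divided by the mean of the WT samples, in the 3 KO (red) and 3 WT (blue) samples, with a marker shape for each replicate. The KO points of Sirt3 lie above its WT points and those of Kat2b below, and the other genes stay near 1 or overlap.

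The genes whose levels across the 6 samples were most like those of Sirt1 and Kat2b were sought among the 7802 protein-coding genes that averaged a log2 CPM of 4 or more. For Sirt1 they were Mrpl15, Zfp472 and Zfp518a, with Pearson correlations of log2 CPM of 0.99 each over 6 samples. For Kat2b they were Mcur1 and Morc3, at 0.99, and Prpf39, at 0.98. With so few samples such values are common: 149 genes had a correlation over 0.9 with Sirt1 and 122 with Kat2b. The samples share their genotype groups and libraries, and none of these 6 genes was called by edgeR (adjusted p from 0.111 to 0.567).

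The rest of the acylation machinery was taken from 11 lists of 137 genes, 133 of them tested. In total 0 rose and 1 fell by edgeR at an adjusted p under 0.05, 0.752% of those tested against 0.674% of all genes, and 16 had an unadjusted p under 0.05, 12.03% against 15.1%. DESeq2 called 4 of the 133, Crat, Acss2, Cpt1a and Bst1, against 3.84% of all genes for which it gave an adjusted p. Sirt4, the sirtuin outside the 10, stood at 5.79, 5.82 and 5.89 CPM in KO and 5.97, 5.90 and 5.08 CPM in WT (log2 fold change 0.05, edgeR adjusted p = 0.882). Of 15 other lysine acetyltransferases none was called by edgeR or DESeq2, and 3 had an unadjusted p under 0.05 by edgeR, with a median log2 fold change of 0.01. Kat8, which acetylates histone H4, stood at 31.0, 30.0 and 30.6 CPM in KO, above 27.4, 27.6 and 27.9 CPM in WT, with a log2 fold change of 0.14 (SE 0.05, edgeR adjusted p = 0.252), and the nuclear receptor coactivator gene Ncoa3 at 0.16 (adjusted p = 0.295). Of 11 zinc-dependent deacetylases none was called by edgeR or DESeq2 and 1 had an unadjusted p under 0.05 (median -0.00). Hdac7, a class II enzyme, was at -0.18 and Hdac1 at -0.11 (edgeR adjusted p = 0.288 and 0.444), and Hdac1 was at -0.06 without WT replicate 1.

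Partner subunits gave no call. None of 25 SAGA and ATAC subunits was called by edgeR or DESeq2, and 1 had an unadjusted p under 0.05 (median log2 fold change -0.02), with Supt20 at -0.15 and Taf9 at -0.40 (edgeR adjusted p = 0.244 and 0.411). Taf9 was at -0.14 without WT replicate 1, its highest sample at 15.8 CPM. None of 16 TIP60 complex subunits was called either, by edgeR or DESeq2, and 0 had an unadjusted p under 0.05 (median 0.00), with Epc2 at 0.08 and Mbtd1 at 0.10 (edgeR adjusted p = 0.537 and 0.545), or at 0.05 and 0.03 without WT replicate 1. All 7 genes for HAT1 partners and histone chaperones were below 0 on the log2 scale (median -0.09), none called by edgeR or DESeq2 and 2 with an unadjusted p under 0.05. Among them Asf1b, a chaperone of newly made histones, was at -0.21 (edgeR adjusted p = 0.282), with 51.3, 58.7 and 55.4 CPM in KO and 69.5, 57.8 and 64.3 CPM in WT, highest in WT replicate 1 like the S phase genes. Of 13 readers of acyl-lysine none was called by edgeR or DESeq2 and 0 had an unadjusted p under 0.05 (median 0.01), with the bromodomain gene Brd3 at -0.09 and the YEATS domain gene Yeats2 at -0.10 (edgeR adjusted p = 0.401 and 0.463), and with Yeats2 at -0.05 without WT replicate 1.

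Genes that supply the substrates gave the 1 call. Of 13 tested genes of acyl-CoA supply, 0 rose, 1 fell and 12 did not pass by edgeR, with a median log2 fold change of 0.00. By edgeR 5 of the 13 had an unadjusted p under 0.05, against 15.1% of all tested genes. DESeq2 called 3 of the 13, against 3.84% of the genes for which it gave an adjusted p. Crat, carnitine acetyltransferase, which exchanges acetyl groups between CoA and carnitine, fell: it had 7.19, 6.66 and 7.18 CPM in KO against 12.3, 15.98 and 13.8 CPM in WT (log2 fold change -1.00, SE 0.11, edgeR adjusted p = 0.0157). The call was lost without KO replicate 2, KO replicate 3 or WT replicate 3, where the log2 fold change of Crat was -0.97, -1.02 and -1.01 (edgeR adjusted p = 0.0604, 0.0878 and 0.0652). Of 16 tested genes of NAD+ synthesis and consumption none was called by edgeR, 3 had an unadjusted p under 0.05 and DESeq2 called 1, Bst1 (median 0.02). Bst1, an NAD+ hydrolase on the surface of myeloid and stromal cells, had 9.24, 2.78 and 3.27 CPM in KO and 1.44, 0.746 and 0.689 CPM in WT (log2 fold change 2.44, SE 0.55, edgeR adjusted p = 0.126), highest in KO replicate 1 like the neutrophil and macrophage markers. Without that sample Bst1 was at 1.67 (edgeR adjusted p = 0.121). Nmnat1, the nuclear enzyme that completes NAD+ synthesis, had 9.38, 8.84 and 9.09 CPM in KO and 10.9, 10.6 and 11.6 CPM in WT, a log2 fold change of -0.28 (SE 0.09, edgeR adjusted p = 0.194). Neither the 8 SIRT1 regulators (median -0.11, with Dyrk3, a kinase, at -0.53, edgeR adjusted p = 0.305) nor the 14 tested mitochondrial sirtuin substrates (median -0.01, with the superoxide dismutase Sod2 at 0.12 and Ppif at -0.12, edgeR adjusted p = 0.348 and 0.513) had a member called by edgeR or DESeq2, and 1 and 0 of them had an unadjusted p under 0.05. Dyrk3 was at -0.31 without KO replicate 1, its lowest sample, and Ppif at -0.03 without WT replicate 1, its highest.

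**Figure D5:**
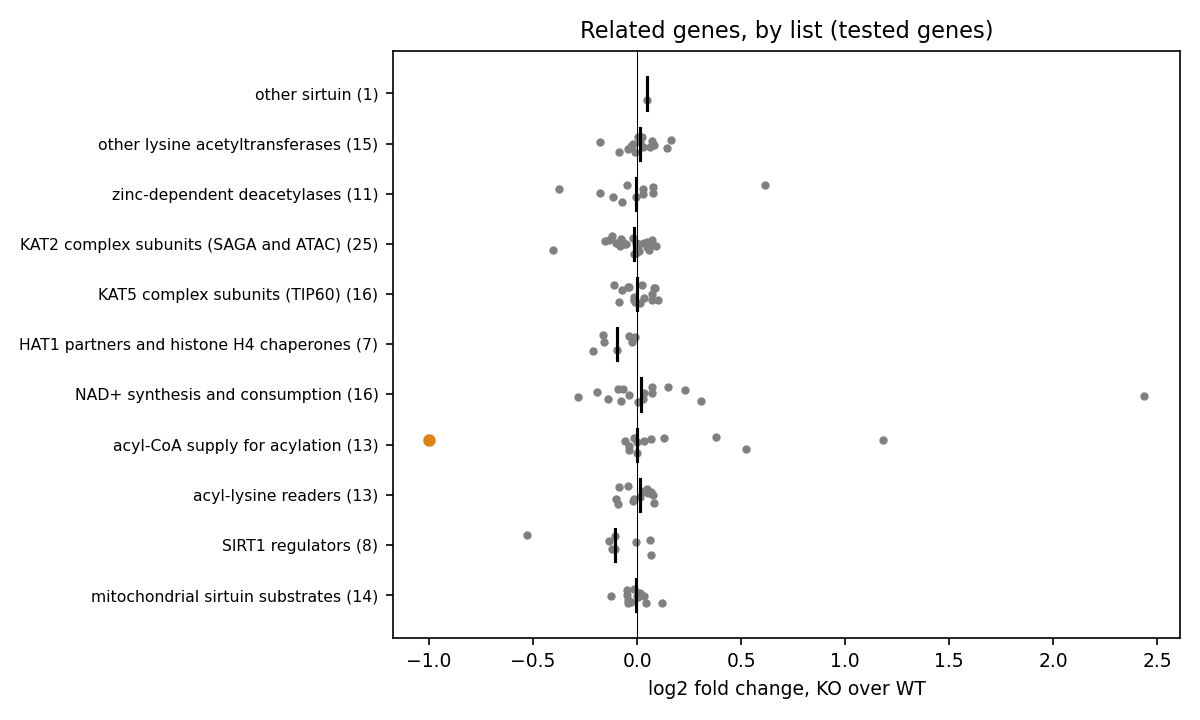
log2 fold change of KO over WT for the tested genes of each related list (points, number tested in brackets) with the list's median (black bar) and the called gene in orange. Medians lie between -0.11 and 0.05, and Crat, at -1.00, is the 1 called gene.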

How the data were processed

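The submitters' processing notes name FastQC and HISAT2, while no source used here gives the genome build, annotation or counting program. The authors deposited estimated counts per gene, per the file headers, with 23.5 to 25.2% of genes in a library not whole. Values named TPM in the file headers were deposited too. They totalled 999992 to 1000008 per library, as for reads divided by length and then by the library's sum of these values. Counts were rounded and filtered by filterByExpr, scaled by TMM and tested KO against WT with edgeR 4.0.16 (quasi-likelihood, robust, two-sided; Benjamini-Hochberg over 12768 genes). CPM are TMM-scaled for tested genes and scaled by library totals for marker lists. limma 3.58.1 was used on log2(TPM + pseudocount) and on log2(counts / TPM), for genes with at least 20 counts in every sample, and DESeq2 1.42.0 as an alternative. R 4.3.3, Python 3.11.15 and pandas 2.3.3 were used.

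On simulated data of 12768 genes for KO against WT (50 changed genes at each size), edgeR called 6% of those changed 1.2-fold. At 1.5-fold it called 56%, at 2-fold 70% and at 4-fold 92%. Its 120 calls held 8 false ones, and the 169 of DESeq2 held 43. Each gene was drawn independently and with the same spread in every library, unlike the real replicates, whose pairs varied unequally. These rates thus need not hold for the real libraries. Members and lists were chosen with earlier results of these data known. Named were all 10 members, Dlst, up to 4 called genes of each list or, with none called, the 1 gene of smallest p (2 for lists of 10 or more), and the 3 genes most like the 2 members of smallest p. In each group the replicates differed by more than sampling noise (chi-square per degree of freedom 3.56 to 43.8), the closest pair being KO replicates 2 and 3. GENCODE M21 matched 21806 of 21899 identifiers.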

Additional observations from a re-analysis of the deposited data

How the results depend on the processing

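No member passed an adjusted p of 0.05 with all samples or under any of 18 alternatives (adjusted p from 0.223 to 0.998), and the sign of Sirt1, Kat2b and Sirt7 was the same in all of them. Over all genes 86 were called, against 527 by DESeq2, 133 with no low-count filter, 56 with the stricter filter, 44 and 39 by limma on log2(TPM + 1) and log2(TPM + 0.1), 6 by limma with no filter, 8 with KO replicates 2 and 3 summed, 538 without KO replicate 1 and WT replicate 1 together, and 4 to 93 when each replicate was left out (lowest without KO replicate 3, then 10 without KO replicate 2, 16 without WT replicate 3 and 27 without WT replicate 2). With the replicate block 177 were called. Whether the replicate numbers pair the samples was not settled. Same-numbered samples had correlations of deviations of 0.184, 0.0780 and 0.0841, and the other pairs -0.145 to 0.112. KO replicates 1 and 2 correlated best with the WT sample of the same number, and KO replicate 3 with WT replicate 2 (0.112). The deviations were taken from means of the same few samples, so these values cannot decide it. The block called no member. Dlst passed by DESeq2 (-0.26, adjusted p = 0.00182) and without KO replicate 1 and WT replicate 1 together (-0.21, 0.0323).

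Other members changed sign. By limma on log2(TPM + 1), log2(TPM + 0.1) and with no filter, Sirt2 was at -0.0033, -0.0034 and -0.0033, Sirt3 at -0.139, -0.160 and -0.139, and Kat5 at 0.0432, 0.0439 and 0.0432. With the replicate block Sirt3 was at -0.0010. Without KO replicate 1 and WT replicate 1 together Sirt2 was at -0.0349, Sirt3 at -0.0164, Sirt5 at -0.0235 and Hat1 at 0.0980. With KO replicates 2 and 3 summed Kat5 was at 0.0014. Leaving out each replicate gave ranges of -0.0199 to 0.0762 for Sirt2, -0.126 to 0.117 for Sirt3, 0.0022 to 0.0942 for Sirt5, -0.0261 to 0.0149 for Sirt6, -0.0012 to 0.0731 for Kat2a, -0.143 to 0.0215 for Hat1 and -0.0453 to 0.0123 for Kat5, and -0.0250 to 0.0868 for Sirt4. The cause was not tested. Bst1 passed by DESeq2 (2.42), with the block (2.29) and without both replicates 1 (2.07). Crat did not pass by limma with no filter (-0.83) or with KO replicates 2 and 3 summed (-0.99). The order of levels was the same by median TPM. The implied length kept its direction for Sirt3 (0.126 to 0.177) and Kat2b (-0.224 to -0.124) in alternatives chosen after seeing the data.

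In simulated data 6% of 1.2-fold changes, which are larger than the 1.12-fold of Sirt1, were recovered by edgeR and 18% by DESeq2. The changed genes were drawn at random from all tested genes, in a single simulated set. These rates are thus not specific to Sirt1, which had 1241 to 1962 counts per sample. Sirt3, at 138 to 271 counts per sample, was measured least precisely.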

Other observations

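Of the genes of acyl-CoA supply, 3 are given here that were chosen after their values were seen. Acss2, which makes acetyl-CoA from acetate in the cytosol and nucleus, stood at 11.3, 6.45 and 7.49 CPM in KO and 4.16, 3.66 and 3.34 CPM in WT. Its log2 fold change was 1.18 (SE 0.22, edgeR adjusted p = 0.0703), with every KO sample above every WT sample and KO replicate 1 highest, as for the myeloid markers, whose part was not tested. Acss1, its mitochondrial counterpart, stood at 14.5, 10.9 and 11.7 CPM in KO and 10.6, 6.54 and 8.76 CPM in WT (log2 fold change 0.52, edgeR adjusted p = 0.252). Cpt1a, which starts the import of long-chain fatty acids into mitochondria, stood at 148, 131 and 138 CPM in KO and 100.5, 112 and 109 CPM in WT (log2 fold change 0.38, SE 0.07, edgeR adjusted p = 0.0572). DESeq2 called Acss2 and Cpt1a and not Acss1. Of the 13 tested genes of that list, 4 lay higher in KO with no overlap of samples and 1, Crat, lower, against 11.9% and 10.9% of all tested genes.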
